A study of Homo sapiens with 3 samples.

Results

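The genes described here are 10 chaperones and folding enzymes of the endoplasmic reticulum (ER) lumen: HSPA5, HSP90B1, PDIA4, PDIA6, CALR, HYOU1, DNAJB11, SDF2L1, CRELD2 and MANF. They were chosen by name, for their place and role in the cell, with earlier results of these data known. All 10 were found among the 58735 genes of the table. RNA-seq had been performed on H660 (NCI-H660), an established human neuroendocrine prostate cancer cell line, after 24 h with the solvent DMSO, with 2.5 μM JG231 or with 5 μM JG231. JG231 is an allosteric inhibitor of HSP70 chaperones. The labels describe the cells of all 3 libraries as parental. There was 1 library per condition, so no standard deviation and no p-value can be given, and each difference compares libraries of cells in culture. The values are FPKM, that is, fragment counts divided by transcript length and by the depth of the library.

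The ER lumen is where secreted and membrane proteins fold. HSPA5 (BiP) binds unfolded chains there with the help of J-domain proteins and exchange factors, HSP90B1 (GRP94) matures a smaller set of clients, calreticulin holds glycoproteins, and protein disulfide isomerases form and shuffle disulfide bonds. When unfolded chains accumulate, the sensors IRE1, ATF6 and PERK start the unfolded protein response (UPR). ATF6 and the XBP1 factor made by IRE1 signalling are known to act on promoters of these chaperones, while PERK acts through the translation factor eIF2 and ATF4. Secretory cells, neuroendocrine cells among them, rely on this machinery.

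In the JG231 libraries the 10 genes did not move together. HSPA5 and SDF2L1 were higher than in DMSO at both doses, HSP90B1, CALR, PDIA4, PDIA6 and CRELD2 were lower at both doses, and HYOU1, DNAJB11 and MANF had smaller differences. Of 15164 genes with an FPKM over 1 that could be compared at both doses, 27.9% were higher and 38.6% lower at both. The log2 differences, computed as log2((FPKM + 0.1)/(FPKM in DMSO + 0.1)), ran from -1.06 for HSP90B1 to 0.75 for HSPA5 at 5 μM and from -0.97 for CRELD2 to 0.67 for SDF2L1 at 2.5 μM. In the same libraries the 10 listed genes of the PERK and ATF4 branch were all higher, with a median log2 difference of 3.24 at 5 μM and 3.15 at 2.5 μM. Of all genes with an FPKM over 1 in either library, 36.5% and 36.4% were higher by over 0.25 at these doses.

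**Figure D1:**
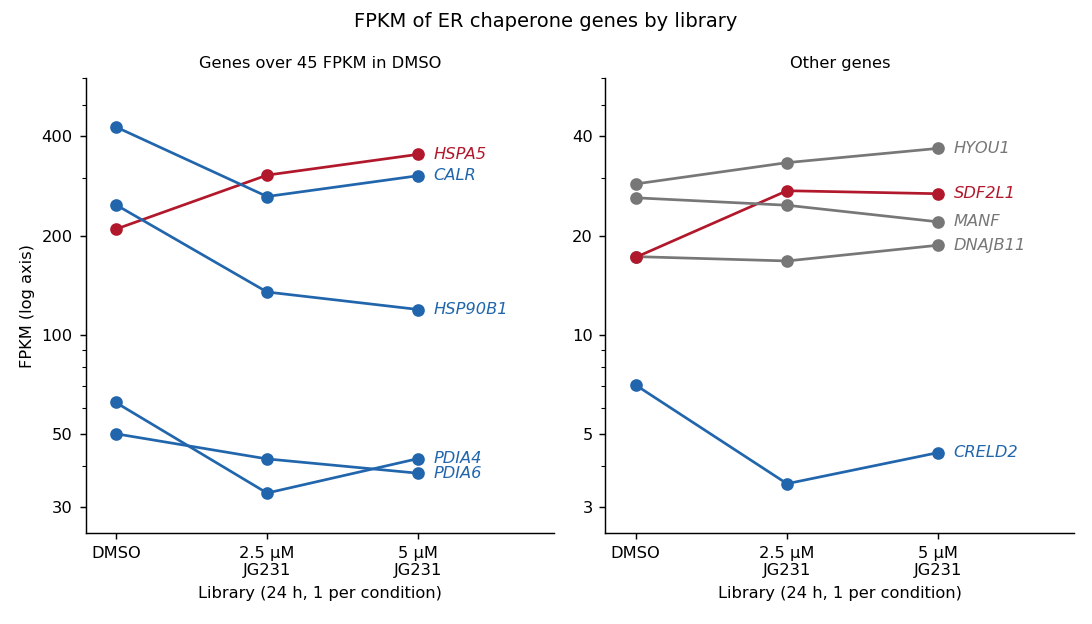
FPKM of the 10 ER chaperone genes (log axes) in the DMSO, 2.5 μM JG231 and 5 μM JG231 libraries, 1 point per library. Red genes were higher and blue genes lower by over 0.25 on the log2 scale at both doses, and grey genes were not; the HSPA5 line starts at 209 FPKM in DMSO, under CALR and HSP90B1, and ends above both at 353.

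A few facts of the libraries bear on every value. The smallest FPKM steps, the worth of 1 fragment, place the depth at 16.1 M fragments for DMSO, 20.4 M for 2.5 μM and 24.04 M for 5 μM. Genes with an FPKM above 0 went the other way, numbering 21862, 19352 and 17293. Mitochondrial and small RNA genes took 40.5%, 24.6% and 29.3% of the summed FPKM. Short transcripts were relatively higher with JG231, with a median log2 difference at 5 μM of 0.61 in the decile of shortest transcripts and -0.52 in the longest. Neuroendocrine markers were detected in each library, with SYP at 17.7, 13.0 and 14.8 FPKM and CHGA at 46.0, 15.05 and 12.7 FPKM in DMSO, 2.5 μM and 5 μM. Of the prostate luminal markers, KLK2 was listed at 0 in each library, KLK3 was at most 0.134 FPKM and TMPRSS2 at most 0.315 FPKM, although the labels call the cells prostatic adenocarcinoma. Of 7 immune, stromal and endothelial markers, PTPRC and PECAM1 were listed at 0 in each library, and the 7 summed to between 1.27 and 1.34 FPKM. The stromal COL1A1 was the highest of the 7 in every library. It stood at 0.823 (DMSO), 0.745 (lower dose) and 1.27 FPKM (higher dose), and its log2 differences were -0.13 and 0.57. The part of composition and RNA quality in the differences below was not tested, and fewer cells of a type and less RNA per cell cannot be told apart.

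HSPA5, the HSP70 of the ER, is the central chaperone of the group (ENSG00000044574, chr9:125234853-125241382, minus strand; GENCODE release 44 on GRCh38, as for all genes below). Its level was 209 FPKM with DMSO, 305 with 2.5 μM and 353 with 5 μM JG231. The 5 μM library was thus highest and the DMSO library lowest. Its log2 difference from DMSO was 0.54 at 2.5 μM and 0.75 at 5 μM. The exact 95% intervals, which cover counting error only, were 0.51 to 0.58 and 0.73 to 0.78. For want of replicates, each gene was set against a spread, a robust SD over the 500 genes nearest in level of how far the JG231 libraries differ from each other (log2). It was 0.19 for HSPA5, and it includes any effect of dose. Its differences were 2.81 and 3.89 times that spread. HSPA5 stood at percentile 74.8 of all genes with an FPKM over 1 in either library at 2.5 μM, and at 79.5 at 5 μM. It was therefore not among the genes that differed most. Among 826 genes with a mean of at least 50 FPKM, HSPA5 included, the median log2 difference was 0.52 at 2.5 μM and 0.63 at 5 μM.

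The cofactors of HSPA5 were divided. SDF2L1, a partner of the J-domain protein DNAJB11 in a complex that keeps HSPA5 clients soluble (ENSG00000128228, chr22:21642302-21644299), was at 17.2 FPKM with DMSO, 27.4 with 2.5 μM and 26.8 with 5 μM JG231. Both JG231 libraries were above DMSO, by log2 differences of 0.67 and 0.64, and they lay close to each other. With the trend on transcript length removed these values were 0.26 and 0.04, so the difference at 5 μM was then under the threshold. DNAJB11 itself (ENSG00000090520, chr3:186567403-186585800), a cochaperone that delivers clients to HSPA5, had 17.3, 16.8 and 18.7 FPKM, log2 differences of -0.04 and 0.11 within its spread of 0.28. Under 2 of 5 scalings it was lower by over 0.25 at both doses. SDF2L1 and DNAJB11 were level in DMSO, with a ratio of 0.995, and SDF2L1 was 1.63 and 1.43 times DNAJB11 with JG231. HYOU1, a large HSP70-like exchange factor for HSPA5 (ENSG00000149428, chr11:119044188-119057227, minus strand), had 28.7, 33.3 and 36.8 FPKM. It was highest at 5 μM, where its log2 difference was 0.36, and its 0.21 at 2.5 μM was under the threshold of 0.25. With mitochondrial and small RNA genes taken out of the scaling, HYOU1 was at -0.02 at 5 μM and -0.08 at 2.5 μM, so its direction depends on the scaling. DNAJB11 overlaps TBCCD1 on the opposite strand over 3141 bases (5.82, 8.45 and 6.01 FPKM), and whether the counting used the strand is not given in the sources used here, so reads of overlapping genes may be shared.

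HSP90B1, the HSP90 of the ER, had the most negative log2 difference of the 10 genes at 5 μM. It (ENSG00000166598, chr12:103930107-103953931) stood at 248 FPKM with DMSO, 135 with 2.5 μM and 119 with 5 μM JG231. Both JG231 libraries were below DMSO, at 0.543 and 0.481 times its value. Among all genes with an FPKM over 1 in either library, HSP90B1 stood at percentile 24.3 at 2.5 μM and 23.3 at 5 μM. The log2 differences were -0.88 (95% counting interval -0.92 to -0.84) and -1.06 (-1.10 to -1.01), 4.37 and 5.24 times the spread of 0.20. UQCC6, on the opposite strand across 13169 bases of HSP90B1, was at 2.81, 6.82 and 6.15 FPKM, and sharing of reads was not tested. The HSP90B1 cochaperone CNPY3 had a log2 difference of 0.02 at 2.5 μM and 0.46 at 5 μM. Of its listed relatives, CNPY2 had -1.72 and -1.03, and CNPY4 had -1.74 and -0.95.

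CALR, the calcium-binding lectin chaperone calreticulin (ENSG00000179218, chr19:12938578-12944489), was the most abundant of the 10 transcripts in DMSO. Its values were 428 FPKM with DMSO, 263 with 2.5 μM and 304 with 5 μM JG231. The lowest library was that of the lower dose, and both JG231 libraries were below DMSO. The log2 differences were -0.70 and -0.49, 3.65 and 2.56 times the spread of 0.19.

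The disulfide isomerases among the 10 were lower in both JG231 libraries. PDIA4, which carries several thioredoxin-like domains (ENSG00000155660, chr7:149003062-149028662, minus strand), had 62.4 FPKM with DMSO, 33.1 with 2.5 μM and 42.1 with 5 μM JG231. Its log2 differences were -0.91 and -0.56, the larger at the lower dose. PDIA6, an isomerase that also binds IRE1 (ENSG00000143870, chr2:10783391-10837977, minus strand), had 50.1, 42.0 and 38.0 FPKM. Its log2 difference was -0.40 at 5 μM, while the -0.25 at 2.5 μM lay just past the threshold and was 1.11 times its spread of 0.23. Scaling to a common sum brought this last value to -0.20. The ratio of PDIA4 to PDIA6 was 1.24 in DMSO, 0.788 at 2.5 μM and 1.11 at 5 μM.

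CRELD2 and MANF are small ER proteins that are known to be induced and secreted in ER stress. CRELD2, a disulfide isomerase-like protein (ENSG00000184164, chr22:49918167-49927540), was the least abundant of the 10, at 7.04 FPKM with DMSO, 3.54 with 2.5 μM and 4.39 with 5 μM JG231. Its log2 differences of -0.97 and -0.67 stood on at least 103 fragments per library. Its spread was wide, at 0.48, and the difference was 2.05 times it at 2.5 μM and 1.41 times at 5 μM. ALG12, on the opposite strand over 272 bases of CRELD2, was at 2.86, 3.23 and 3.50 FPKM, and sharing of reads was not tested. MANF, which binds HSPA5 (ENSG00000145050, chr3:51385291-51389397), had 26.1, 24.7 and 22.0 FPKM. Its log2 differences of -0.07 and -0.24 did not pass the threshold and were within its spread of 0.24. It was lower by over 0.25 under 3 of 5 scalings at 5 μM (-0.37, -0.62 and -0.81) and under 2 of 5 at 2.5 μM (-0.37 and -0.47).

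**Figure D2:**
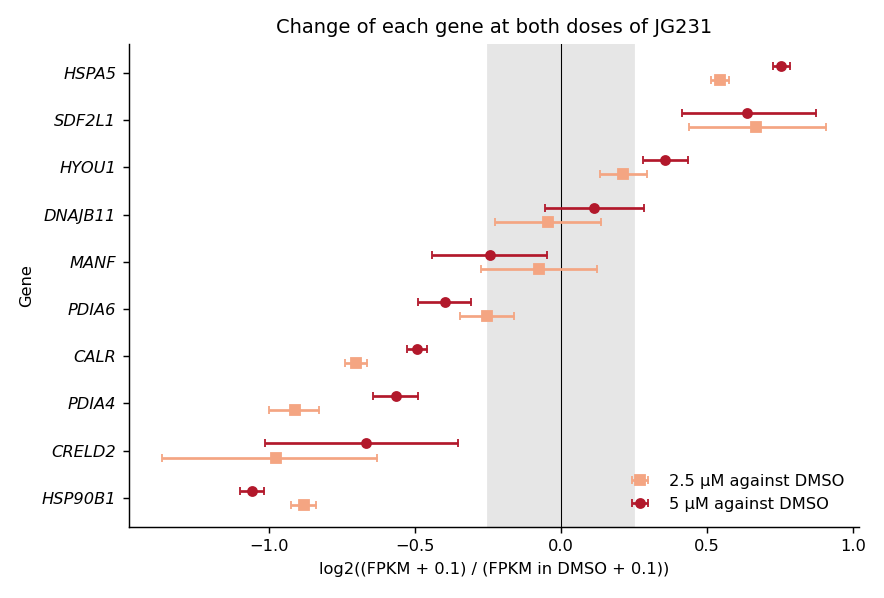
Log2 difference from DMSO of each gene at 2.5 μM (squares) and 5 μM JG231 (circles); bars are exact 95% intervals from fragment counts and cover counting error only, and the grey band marks the threshold of 0.25. HSPA5 and SDF2L1 lie to the right of the band at both doses, and HSP90B1, CRELD2, PDIA4, CALR and PDIA6 lie to its left, PDIA6 at 2.5 μM at its edge.

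Promoter sequences are shown because 7 of these 10 genes carry the same kind of element and yet had opposite signs. Promoters of 300 bases (250 before the start site and 50 from it; RefSeq, GRCh38.p14) were available for all 10 genes, 12 promoters in all. RefSeq start sites can lie inside the longer GENCODE span of a gene. They were searched on both strands for the ER stress response element, ERSE, which is CCAAT followed after 9 bases by CCACG and is known to bind NF-Y and ATF6, and for ERSE-II, ATTGG followed after 1 base by CCACG. An exact ERSE was in the promoters of HSPA5, HSP90B1 (2 matches), PDIA6, CALR and CRELD2, and ERSE-II in those of HYOU1 (2 matches) and SDF2L1. Of all 35116 promoters, 0.0769% held ERSE and 0.0541% held ERSE-II. The 10 are counted as genes and these shares as promoters, and enrichment was not tested. The stretches with 15 bases on either side read as follows, in the direction of the gene, with the matches in capitals. A match on the other strand reads as its reverse complement, ending in ATTGG for ERSE and in CCAAT for ERSE-II.
HSPA5 (chr9:125241376-125241424, minus strand): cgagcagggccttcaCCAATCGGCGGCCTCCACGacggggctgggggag
SDF2L1 (chr22:21642099-21642139, plus strand): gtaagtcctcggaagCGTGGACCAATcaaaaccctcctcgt
HYOU1 (chr11:119057259-119057405, minus strand): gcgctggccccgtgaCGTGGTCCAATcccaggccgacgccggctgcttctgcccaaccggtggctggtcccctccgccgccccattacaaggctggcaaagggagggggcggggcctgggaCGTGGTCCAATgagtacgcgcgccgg
HSP90B1 (chr12:103930201-103930354, plus strand): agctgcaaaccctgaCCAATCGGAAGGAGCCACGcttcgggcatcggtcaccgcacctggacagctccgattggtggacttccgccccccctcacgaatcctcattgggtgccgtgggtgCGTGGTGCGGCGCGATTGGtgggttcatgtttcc
CALR (chr19:12938369-12938417, plus strand): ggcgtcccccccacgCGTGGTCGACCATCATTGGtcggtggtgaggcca
PDIA6 (chr2:10812838-10812886, minus strand): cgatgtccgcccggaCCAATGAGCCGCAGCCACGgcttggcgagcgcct
CRELD2 (chr22:49918539-49918587, plus strand): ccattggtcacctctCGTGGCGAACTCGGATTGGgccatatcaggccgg

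Of the 5 genes with an exact ERSE, HSPA5 was higher and HSP90B1, CALR, PDIA6 and CRELD2 were lower at both doses. Of all genes compared at both doses, 27.9% were higher and 38.6% lower at both. Both genes with ERSE-II, SDF2L1 and HYOU1, were higher at 5 μM in the FPKM as deposited, and neither was past 0.25 under every scaling. Of all genes with an FPKM over 1 in either library, 36.5% were higher at 5 μM. In the deciles of level that hold SDF2L1 and HYOU1, 57.1% and 68.5% were higher. HSP90B1, with the most negative difference at 5 μM, held 2 exact ERSE matches, and HSPA5, with the most positive, held 1. PDIA4, DNAJB11 and MANF held neither element in this window. The UPRE, TGACGTGG, was found in HYOU1 alone, where it overlaps the upstream ERSE-II match, and in 0.729% of all promoters. Neither the C/EBP-ATF element TTGCATCA nor a heat shock element (GAA, then TTC after 2 bases, then GAA after 2 more) was found in a promoter of the 10 genes, and 0.866% and 0.49% of all promoters held them. The letters CCACG alone were in 38.1% of promoters and CCAAT alone in 34.6%, and both lie within ERSE.

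The same elements were then looked up in other genes, after the values of the 10 had been seen. Besides the 7, 37 genes had ERSE or ERSE-II in a promoter, and 21 of them had an FPKM over 1. At 5 μM 13 of these were higher and 4 lower by over 0.25, with a median log2 difference of 0.59, and at 2.5 μM 12 were higher and 3 lower, with a median of 0.31. Over all genes with an FPKM over 1 in either library, 36.5% were higher and 45.1% lower at 5 μM and 36.4% and 43.4% at 2.5 μM, and 48.8% and 48% were higher where the mean was 5 FPKM or more. HERPUD1, a factor of ER-associated degradation, had 6.28, 45.1 and 45.1 FPKM. XBP1 had 47.1, 125 and 139 FPKM, and SERP1, which stabilises membrane proteins, had 25.6, 47.8 and 68.2 FPKM. Calnexin (CANX), the membrane-bound relative of CALR, had 163, 139 and 125 FPKM. At 5 μM each element occurred among both the higher and the lower of these other genes, so they were not split by element.

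The order of the genes within a library differed with JG231. In DMSO it was CALR, HSP90B1, HSPA5, PDIA4, PDIA6, HYOU1, MANF, DNAJB11, SDF2L1 and CRELD2. HYOU1 and MANF differed there by 0.14 on the log2 scale, and DNAJB11 and SDF2L1 by 0.01, both within the spread of a gene. HSPA5 ranked first in both JG231 libraries, ahead of CALR by 0.22 on the log2 scale at each dose, which is slightly beyond the spread of 0.19. HSPA5 made up 19.1% of the summed FPKM of the 10 genes in DMSO, 34.5% at 2.5 μM and 36.6% at 5 μM. HSP90B1 made up 22.7%, 15.3% and 12.4%. The sum itself was 1094, 884 and 966 FPKM, lower in both JG231 libraries. FPKM levels of different genes depend on the length each was divided by, which is not known for the authors' annotation, whereas a comparison of the same gene or ratio between libraries does not.

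A ratio of genes within a library is free of the scaling between libraries, but not of the trend on transcript length. The ratio of HSPA5 to HSP90B1 was 0.843 in DMSO, 2.26 at 2.5 μM and 2.96 at 5 μM, a 3.51-fold difference between 5 μM and DMSO. The ratio of HSPA5 to CALR was 0.489 in DMSO and 1.16 at both doses. Relative to DMSO, HSPA5 gained on 8 of the other 9 genes at both doses, from 1.26-fold over HYOU1 to 2.91-fold over CRELD2 at 2.5 μM. The ratio to SDF2L1 was 0.916-fold and 1.08-fold that in DMSO. With the length trend removed, however, the log2 difference at 5 μM was 0.85 for HSPA5 and 0.04 for SDF2L1.

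**Figure D3:**
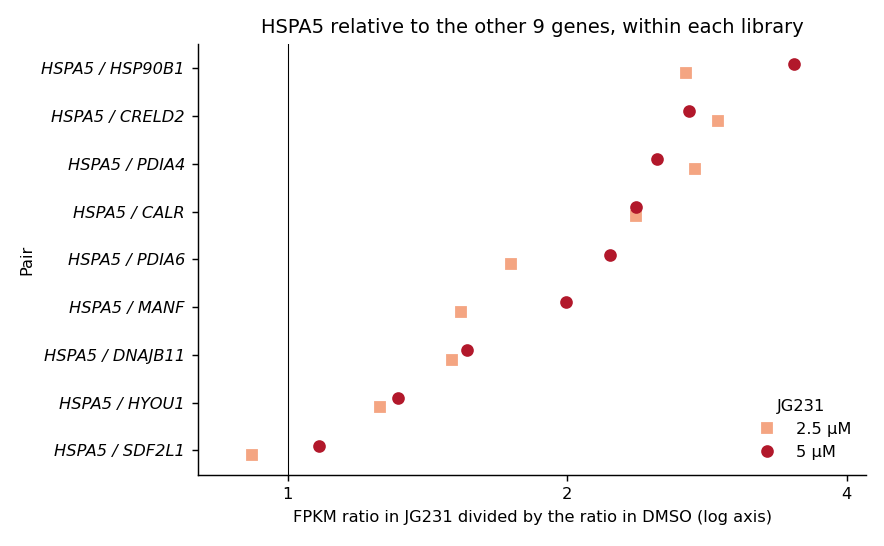
FPKM of HSPA5 divided by that of each of the other 9 genes in the same library, shown relative to the ratio in DMSO (log axis) at 2.5 μM (squares) and 5 μM JG231 (circles). All ratios but that to SDF2L1 at 2.5 μM lie above 1, and that to HSP90B1 reached 3.51 at 5 μM.

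The share of genes that differed this much was high across the table. At 5 μM 3 of the 10 genes were higher by over 0.25 on the log2 scale, against 36.5% of 15765 genes with an FPKM over 1 in either library, and 5 were lower, against 45.1%. At 2.5 μM 2 of 10 were higher, against 36.4% of 15746 genes, and 5 were lower, against 43.4%. In the values as deposited these shares lie near the background. The split depended on the scaling. With the length trend removed, 2 of 10 were higher and 7 lower at 5 μM, against 33.6% and 45.8% of all genes, and 3 were higher and 7 lower at 2.5 μM, against 33.3% and 45.3%. With mitochondrial and small RNA genes out of the scaling, 2 were higher and 7 lower at each dose, against 22.9% and 60.1% of all genes at 5 μM and 24.6% and 56.2% at 2.5 μM. With a common sum, 2 were higher and 6 lower at 5 μM, against 31.5% and 50%, and 3 were higher and 4 lower at 2.5 μM, against 38.5% and 41.5%. The median log2 difference of the 10 was -0.32 at 5 μM and -0.16 at 2.5 μM, beside medians of -0.11 and -0.08 over all these genes. Highly expressed genes differed from this background. Where the mean over the libraries was 5 FPKM or more (7583 genes), 48.8% were higher and 27.4% lower at 5 μM, and 48% and 26.1% at 2.5 μM. The 9 of the 10 genes in that range (CRELD2 was just under it) counted 3 higher and 4 lower at 5 μM, and 2 higher and 4 lower at 2.5 μM. The highest decile of level held HSPA5, HSP90B1, CALR, PDIA4, PDIA6 and HYOU1. There the median of all genes at 5 μM was 0.57. Of its 1379 genes 68.5% were higher by over 0.25, among them HSPA5 and HYOU1. The 14.2% that were lower included HSP90B1, CALR, PDIA4 and PDIA6. With a threshold of 1, HSP90B1 alone passed, at 5 μM, where 24.3% of all genes were lower and 14.7% higher. At 2.5 μM no member passed it, against 21.7% lower and 12.9% higher. Comparisons with DMSO at the 2 doses share the DMSO library.

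The JG231 libraries can be compared without DMSO. PDIA4 was higher at 5 μM than at 2.5 μM by 0.35 on the log2 scale (95% counting interval 0.26 to 0.43), and CRELD2 by 0.31 (-0.06 to 0.69). The other 8 genes differed between doses by at most 0.21 in either direction, from -0.18 for HSP90B1 to 0.21 for HSPA5 and CALR. Thus 2 of 10 genes were higher, against 26.8% of 14197 genes, and 0 were lower, against 30.1%. With libraries scaled to a common sum, 0 were higher, against 16.9% of all genes, and HSP90B1, PDIA6 and MANF were lower, against 45.2%.

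The direction and the threshold held under 5 scalings at both doses for HSPA5, HSP90B1, CALR, PDIA4 and CRELD2. HSPA5 ranged from 0.37 to 0.85 for the higher dose and from 0.25 to 0.59 for the lower. The corresponding ranges of HSP90B1 were -1.44 to -1.05 and -1.17 to -0.83. The length trend moved SDF2L1 and MANF, which have short transcripts of 825 and 909 bases, to the lower values given above. HSPA5 and HYOU1 have longer transcripts, of 3921 and 4598 bases, and their 5 μM values were 0.85 and 0.53 with the trend removed. Leaving mitochondrial and small RNA genes out of the scaling put the median of all genes with a mean FPKM over 1 at -0.38 at 5 μM and -0.28 at 2.5 μM, from -0.01 and 0 in the values as deposited. Relative to it HSPA5 and SDF2L1 were the genes of the 10 most above and HSP90B1 the most below at 5 μM.

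**Figure D4:**
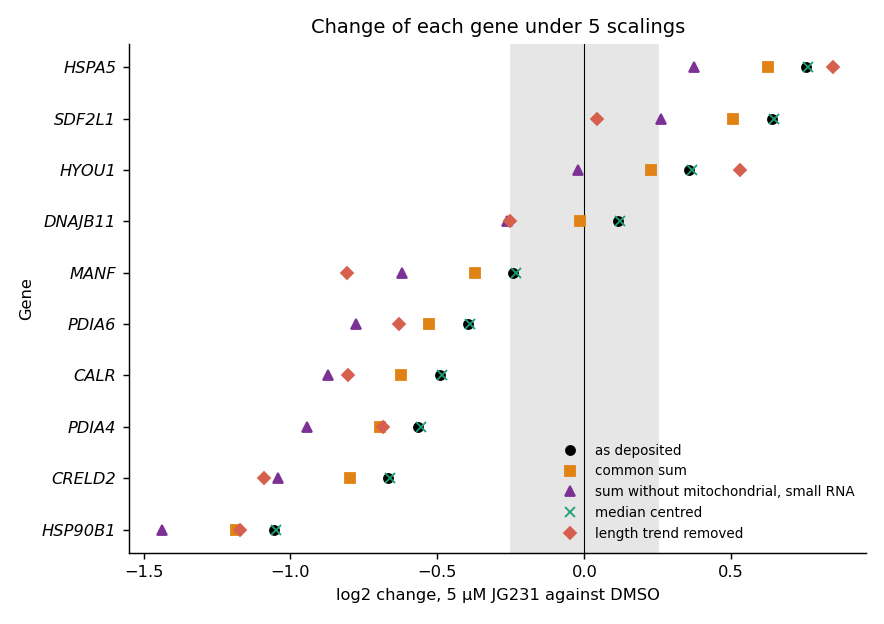
Log2 difference between 5 μM JG231 and DMSO for each gene under 5 scalings of the libraries; the grey band marks the threshold of 0.25. HSPA5 is right of the band and HSP90B1, CRELD2, PDIA4, CALR and PDIA6 are left of it under each, whereas SDF2L1, HYOU1, DNAJB11 and MANF enter or leave it.

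Other genes of ER folding, taken from lists of 47 genes that are not among the 10, also held higher and lower members. Of the 42 with an FPKM over 1 at 5 μM, 10 were higher and 23 lower by over 0.25, with a median log2 difference of -0.36, and at 2.5 μM 8 were higher and 23 lower, with a median of -0.32. Over all genes 36.5% were higher and 45.1% lower at 5 μM, and 36.4% and 43.4% at 2.5 μM. Among the HSPA5 cofactors, the J-domain proteins DNAJB9 and DNAJC1 had log2 differences of 2.24 and 1.46 at 5 μM, while DNAJC10, which reduces disulfides, had -1.09 and DNAJC3 -0.33. Of 15 other isomerases and oxidases, 4 were higher and 8 lower at 5 μM. TXNDC12 (1.77) and TXNDC11 (0.53) led the higher ones and the oxidase QSOX1 had -0.97, while ERP27, a non-catalytic relative of the isomerases, had 4.02 FPKM in DMSO and 0.97 at 2.5 μM and was listed at 0 at 5 μM. None of the 8 genes of the calnexin cycle was higher and 5 were lower, with UGGT1, the glycoprotein folding sensor, at -1.59 and the lectin MLEC at -0.67. Of 7 prolyl isomerases, PPIB (0.77) and FKBP2 (0.43) were higher, and FKBP7 (-1.92) and FKBP9 (-1.51) were among 4 lower.

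The translocon brings chains into the ER, and KDEL receptors return chaperones to it. Of 11 such genes with an FPKM over 1, 8 were higher and 2 lower at 5 μM, with a median log2 difference of 0.38, and 5 were higher and 1 lower at 2.5 μM. Over all genes with an FPKM over 1 in either library, 36.5% were higher and 45.1% lower at 5 μM, and 36.4% and 43.4% at 2.5 μM. The 2 highest deciles of level hold some but not all of the 11. In them 57.1% and 68.5% of all genes were higher and 20.9% and 14.2% lower at 5 μM, and the median in the highest was 0.57. At 2.5 μM 54.2% and 62.7% were higher and 19.9% and 16.1% lower. The translocon subunits SEC61G and SEC61B had log2 differences of 1.21 and 0.90 at 5 μM. The KDEL receptor KDELR2 had -0.28 and the translocon-associated SSR1 -0.57.

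The UPR sensors were also divided. ERN1, which encodes IRE1, had 2.08 FPKM with DMSO, 11.0 with 2.5 μM and 8.96 with 5 μM JG231. XBP1 had log2 differences of 1.40 and 1.56, ATF6 0.95 and 0.84, and EIF2AK3, which encodes PERK, 1.05 and 0.89. These 4 were higher at both doses, whereas ATF6B (-0.83 and -0.92) and the proteases that cleave ATF6, MBTPS1 (-0.37 and -0.40) and MBTPS2 (-0.60 and -1.26), were lower. In the PERK and ATF4 branch, 10 of 10 genes were higher at each dose. HERPUD1, named above among the genes with ERSE or ERSE-II, is 1 of these 10. The shares of all genes were 36.5% higher and 45.1% lower at 5 μM and 36.4% and 43.4% at 2.5 μM, beside 4 higher and 3 lower of the 7 sensors at each dose. DDIT3, the CHOP factor, had 24.8, 338 and 397 FPKM, and TRIB3, a CHOP target, 5.58, 139 and 163. Differences between lists were not tested.

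**Figure D5:**
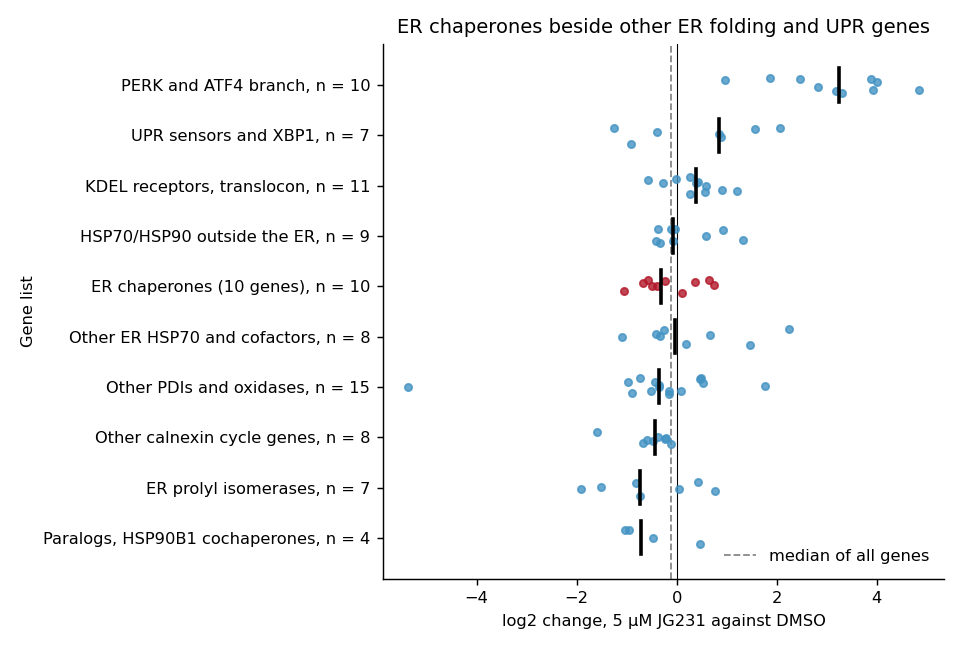
Log2 difference between 5 μM JG231 and DMSO of each gene with an FPKM over 1 in either library, by list; black bars are medians, n counts genes, and the dashed line is the median of all genes (-0.11). The 10 ER chaperones (red) lie between -1.06 and 0.75, and the PERK and ATF4 branch between 0.96 and 4.84; the point at the far left is ERP27, listed at 0 at 5 μM.

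For HSPA5, the protein-coding genes outside these lists with the most similar pair of log2 differences, among 6967 whose mean was 5 FPKM or more, were UQCRQ, SLIRP and DGKZ. Their Euclidean distances were 0.0028, 0.0086 and 0.010 over 2 differences, which rest on 3 libraries. There were 113 such genes within 0.1, so the likeness is a common one.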

How the data were processed

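RNA-seq values of 3 H660 libraries were analysed (DMSO, 2.5 and 5 μM JG231, 24 h). Doses follow the sample titles, with the unit from the study's methods. The authors deposited FPKM in 1 table of 58735 genes. The methods name HISAT and StringTie, and the submitters' processing notes name HISAT2, featureCounts and GRCh38; versions are not given in the sources used here. FPKM multiplied by total exon length (GENCODE release 44; 58207 genes matched by identifier) fell within 0.05 of whole multiples of 1 fragment for 88.3%, 85.9% and 84.2% of single-transcript genes under 50 fragments in the DMSO, 2.5 μM and 5 μM libraries. For genes with more transcripts these shares were 47.9%, 49.0% and 46.7%, and 12.9%, 12.7% and 11.4% with the canonical transcript length. Fragments of a gene were computed with the canonical length and are a low estimate. Exact (Clopper-Pearson) 95% intervals cover counting error only, since reads without molecular identifiers may be copies.

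Differences were log2 with a pseudocount of 0.1, which understates low genes, for genes with an FPKM over 1 in either library, and a threshold of 0.25, as in the study's methods. No test was run, as there was 1 library per condition. The members and lists were chosen with earlier results of these data known. Genes named besides the 10 were, in each list, up to 2 higher and 2 lower genes that differed most at 5 μM in the direction they had at 2.5 μM, all UPR sensors, marker genes (some are not reported here) and the genes nearest to HSPA5; HERPUD1, SERP1, CANX, HSPA8, HSP90AB1, SDF2 and the overlapping TBCCD1 and UQCC6 were named after values were seen. Protein features were not analysed here. Alternatives were other pseudocounts (1 and 0.01), filters, a threshold of 1, scalings, the length trend removed by lowess (fraction 0.3), summed symbols and a protein-coding background. The scripts were tested on simulated data. Tables were made in Python 3.11.15 with pandas 2.3.3 and numpy 2.4.6, intervals with scipy 1.17.1, the length trend with statsmodels 0.14.6, and plots with matplotlib 3.10.9.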

Additional observations from a re-analysis of the deposited data

Results flagged for a closer look

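DNAJB11 had opposite signs at the 2 doses, -0.04 at 2.5 μM and 0.11 at 5 μM, a gap of 0.16 on the log2 scale with 1 library each. The difference was not tested, and it is within the spread of 0.28 for genes of that level.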

How the results depend on the processing

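The counts and medians of the 10 genes depended on filter, threshold and scaling. With a mean FPKM of at least 5, the median at 2.5 μM was -0.0747 and 1 gene was higher at 5 than at 2.5 μM. With a mean of at least 50, 3 genes were left, of which 1 was higher and 2 lower at each dose against DMSO and 0 were higher between doses, with medians of -0.49 at 5 μM and -0.70 at 2.5 μM. With a threshold of 1, 0 genes were higher in each comparison, 1 was lower at 5 μM and 0 at 2.5 μM. With a common sum, the median at 5 μM was -0.45, and between doses it reversed to -0.0284, with 0 genes higher and 3 lower (16.9% and 45.2% of all genes). Without mitochondrial and small RNA genes, the medians were -0.70 at 5 μM, -0.45 at 2.5 μM and 0.0625 between doses, with 1 gene higher and 2 lower between doses (21% and 36.7% of all genes), and HYOU1 reversed to -0.0217 at 5 μM. With the length trend removed, the medians were -0.66 and -0.45, and 1 gene was lower between doses (27.5% of all genes). Except where the filter or threshold itself removed genes, the cause was not tested. Of the counts and medians compared in this way, 82 stayed within 1.5 times (counts) or within the counting error (medians) of the value reported, 25 moved and 1 reversed. A count of 5 lower genes that became 7 is among the 82. Of the values of single genes 275 stayed within counting error, 60 moved and 1, past 0.25 before, reversed. Values of HYOU1 and DNAJB11 under 0.25 also changed sign under rescaling or with the length trend removed. No filter, summed symbols and a protein-coding background left each count of the 10 genes as it was. No paired analysis was possible because each condition had 1 library.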

Other observations

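Outside the ER, 9 chaperones and cochaperones of the same families had 3 higher, 3 lower and 3 under 0.25 at 5 μM, and 2, 4 and 3 at 2.5 μM, where 36.5% of all genes were higher and 45.1% lower at 5 μM and 36.4% and 43.4% at 2.5 μM. The cytosolic J-domain protein DNAJB1 had log2 differences of 0.93 and 1.33 at 2.5 and 5 μM, the cytosolic HSP90AA1 -0.64 and -0.41, and the exchange factor HSPH1 -0.59 and -0.37. HSPA9, the HSP70 of mitochondria, had 56.9, 109 and 108 FPKM with DMSO, 2.5 μM and 5 μM JG231, and the ratio of HSPA5 to HSPA9 was 3.68, 2.79 and 3.26. HSPA8, the constitutive HSP70 of the cytosol, had 189, 136 and 180 FPKM, and the ratio of HSPA5 to HSPA8 was 1.10, 2.24 and 1.96. For the HSP90 family, the ratio of HSP90B1 to the cytosolic HSP90AB1 was 0.402, 0.347 and 0.244, or 0.864 and 0.606 times that in DMSO at 2.5 and 5 μM. Processed pseudogenes of HSPA8 and HSP90AB1 could share their reads, so these ratios are uncertain. The ratio of CALR to CANX was 2.63, 1.89 and 2.43. The SDF2L1 relative SDF2 had 18.4, 14.1 and 15.5 FPKM, and the ratio of SDF2L1 to SDF2 was 0.936, 1.95 and 1.73.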
